A study of Mus musculus with 2 samples.

Results

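The 10 apolipoproteins described here are Apoa1, Apoa2, Apoa4, Apoa5, Apob, Apoc1, Apoc3, Apoe, Apoh and Apom, each read by 1 probe set. They were chosen by gene symbol from the platform annotation, out of 15644 named genes on the array. Primary hepatocytes, the lipid-exporting parenchymal cells of the liver, were isolated, according to the labels, from a male mouse of strain C57BL/6, 9 weeks old, and kept in culture for 24 h. The labels do not say whether the RNA samples pooled later came from separate animals or cultures. In the PCN group the cells then received 10 µmol/l pregnenolone 16α-carbonitrile, a steroid agonist of the rodent pregnane X receptor, for 12 h. In the DMSO group they received the vehicle, dimethyl sulfoxide, over the same time. Each group was 1 array of cRNA from 5 µg of RNA pooled over 3 samples, so that no spread between cultures could be measured and no test was possible. The words "higher" and "lower" compare these 2 arrays only.

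Apolipoproteins are the protein part of plasma lipoproteins, the particles in which liver and intestine export triglyceride and cholesterol. Apob is the scaffold of very low density lipoprotein and stays with its particle, whereas the smaller apolipoproteins move between particles and act on lipases, on the cholesterol-esterifying enzyme LCAT and on receptors. Hepatocytes make most of them in quantity, which makes their mRNAs some of the most abundant in the liver.

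Levels below are linear-scale intensities after GCRMA, and differences are in log2 units, PCN minus DMSO. Genes counted as measured from an intensity of 32 upwards (5 in log2 units), and 6449 named genes reached this floor in at least 1 array. Of the 10 apolipoproteins, 9 were measured. The exception was Apoa5, which was under the floor in both arrays. The label of the cells was checked against 10 hepatocyte markers, of which 8 had a probe set and 7 were measured. Alb, the albumin gene, stood at 21383 in the PCN array and 21685 in the DMSO array. Tat, a liver transaminase, was under the floor in both, at 14.9 with PCN and 23.9 with DMSO. All 6 genes of a short list of known PCN-responsive genes were higher in the PCN array by 1.2-fold or more, beside 9.06% of all measured genes. Cyp3a25 was higher by the most, at 7.82-fold. The list was written with earlier results of these data known, so it is not an independent check.

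The measured apolipoproteins differed little between the arrays. In the PCN array 7 of the 9 were lower and 2 were higher, with a median log2 difference of -0.05, while over all measured genes 42.4% were lower and the median was 0.03. Only Apoa4 passed a size threshold of 1.2-fold, and it was lower with PCN. Over all measured genes 8.95% were lower by that much and 9.06% were higher, so 1 of 9 is near the background. At 1.1-fold the count was also 1 lower and 0 higher, beside 18.8% lower and 25.6% higher over all measured genes. Most measured genes are dimmer than the 9 apolipoproteins. No apolipoprotein reached 1.5-fold, which 1.3% of all measured genes passed as lower and 0.636% as higher, or 2-fold, with 0.233% lower and 0.093% higher. After median centring the split of all genes past 1.2-fold was 435 higher and 709 lower, against 584 higher and 577 lower without it, and after removal of a loess trend it was 439 higher and 693 lower. The count for the apolipoproteins was 1 lower and 0 higher under each of these scalings.

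**Figure D1:**
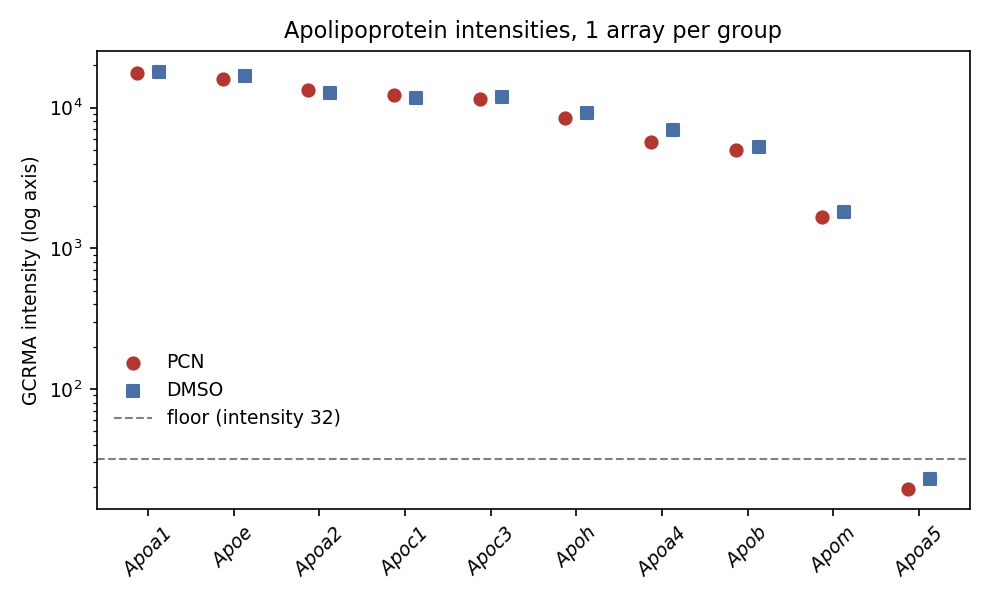
Intensity of each apolipoprotein probe set in the PCN array (circles) and the DMSO array (squares) on a log axis, 1 array per group, with the floor of 32 dashed. The points of each pair lie close together, from Apoa1 at 17665 with PCN and 18024 with DMSO down to Apoa5 under the floor.

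Apoa1, the main protein of high density lipoprotein (HDL) and an activator of LCAT, had the highest intensity of the 10. It stood at 17665 in the PCN array, against 18024 in the DMSO array, a log2 difference of -0.03. Among named genes it ranked 11 with PCN and 10 with DMSO. Probe sets of different genes are not calibrated against each other, so ranks order signals and not transcript numbers. Apoa2, the next most abundant HDL protein in mice, had 13367 with PCN and 12618 with DMSO. Its log2 difference of 0.08 was the highest of the family, a 1.06-fold difference, and its rank was 27 with PCN and 28 with DMSO.

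Apoe, the ligand by which remnant particles bind receptors on hepatocytes, stood at 15947 with PCN and 16684 with DMSO. The log2 difference was -0.07, and the ranks were 18 with PCN and 15 with DMSO. Macrophages also make Apoe, so markers of Kupffer cells and leukocytes were read beside it. Of 14 such markers with a probe set 3 were measured, and the sum of all 14 was 1802 in the PCN array and 1851 in the DMSO array. Most of that sum was Cd68, a lysosomal protein, at 1626 with PCN and 1690 with DMSO. The Kupffer cell marker Clec4f was under the floor, at 9.03 with PCN and 10.9 with DMSO, as was Adgre1, the F4/80 antigen, at 7.24 with PCN and 6.19 with DMSO. The part of other cells in the Apoe signal was not tested, and in pooled RNA of a culture fewer cells of a type and less RNA per cell cannot be told apart.

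The 2 measured apolipoproteins of the C group among the 10 regulate lipolysis. Apoc1, which slows lipoprotein lipase and the uptake of remnants, had 12229 with PCN and 11778 with DMSO, a log2 difference of 0.05. Apoc3, an inhibitor of lipoprotein lipase and of remnant clearance, had 11585 with PCN and 11930 with DMSO, a difference of -0.04. The 2 genes thus exchanged places in the order of signals, Apoc1 being at rank 33 with PCN and 40 with DMSO, and Apoc3 at rank 40 with PCN and 35 with DMSO. Apob had 5034 with PCN and 5205 with DMSO, a difference of -0.05 that is the median of the 9 measured genes.

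Apoh and Apom were somewhat lower. Apoh encodes beta-2 glycoprotein I, a plasma protein that binds anionic phospholipid, and stood at 8412 with PCN and 9135 with DMSO, 1.09-fold lower. Apom, a lipocalin that carries sphingosine-1-phosphate on HDL, stood at 1657 with PCN and 1811 with DMSO, also 1.09-fold lower. Neither reached 1.2-fold, and of all measured genes 21.2% had a lower difference than Apoh and 19.9% a lower difference than Apom. Within their own bands of intensity rank these shares were 11.3% for Apoh and 11.1% for Apom.

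Apoa4, a protein of chylomicrons and HDL that in mice is made by liver as well as intestine, showed the largest difference of the family. Its intensity was 5691 in the PCN array, against 6984 in the DMSO array, a log2 difference of -0.30 and 1.23-fold lower. In rank it stood at 119 with PCN and 85 with DMSO. Of all measured genes 7.40% had a lower difference, against 3.33% of its band of ranks 51 to 200. Apoa5, which in mice lowers plasma triglyceride, was read at 19.6 with PCN and 22.8 with DMSO. Both values are under the floor, so its log2 difference of -0.22 as deposited is not used.

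**Figure D2:**
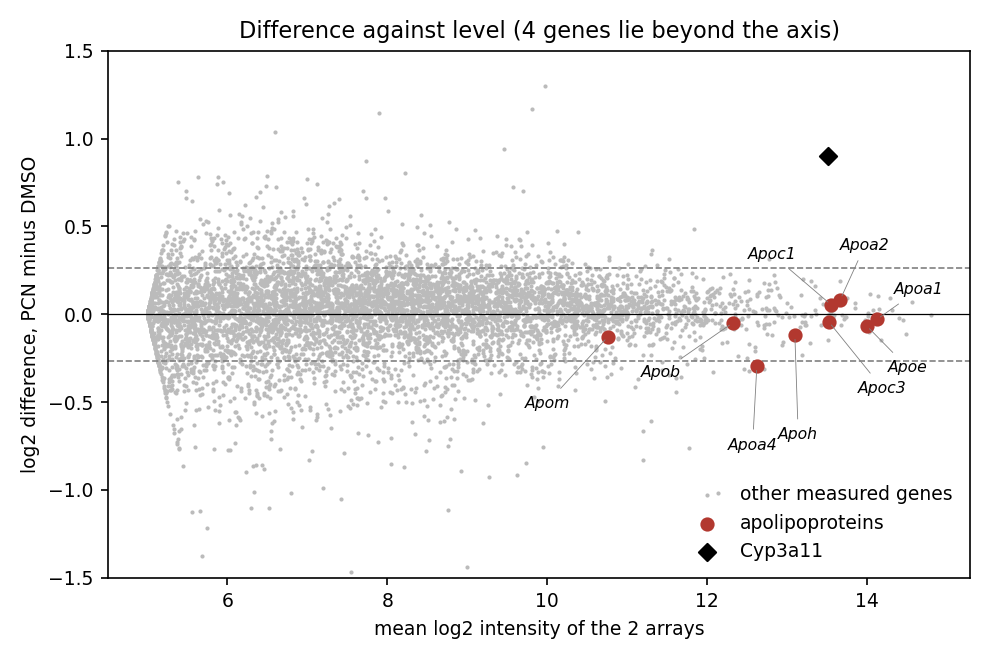
Log2 difference, PCN minus DMSO, against mean log2 intensity for the 6449 measured genes (grey), with the 9 measured apolipoproteins in red, Cyp3a11 as a black diamond and 1.2-fold dashed. The apolipoproteins lie at the right, where the cloud is narrow, and Apoa4 alone among them lies below the dashed line.

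Most of these genes lie where an array reads its strongest signals, and near the top of the scale a signal can be compressed, so that differences are understated. The highest intensity of a gene was that of Serpina1c, an alpha-1-antitrypsin gene of a family with closely related copies, at 28482 with DMSO. Apoa1 reached 62.2% of the highest value in the PCN array and 63.3% in the DMSO array, and Apoe reached 56.2% with PCN and 58.6% with DMSO. By mean log2 intensity 5 of the 9 apolipoproteins were among the 50 brightest measured genes and 8 among the 200 brightest. Differences were less spread among bright genes than among dim ones. The interquartile width of the log2 difference was 0.081 for ranks 1 to 50, 0.152 for ranks 51 to 200 and 0.154 for the next 800 genes, against 0.251 for the dimmer genes. The SD was 0.145 in each of these 3 brighter bands and 0.237 for the dimmer genes. It is raised by single genes with large differences, such as Cyp3a11 (0.90) in ranks 1 to 50 and Adh1 (-1.02) in ranks 51 to 200. The width from the 5th to the 95th percentile was 0.284, 0.416 and 0.466 in these bands, against 0.719 for the dimmer genes. How far compression contributed to the narrow interquartile width was not tested.

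The genes ranked next to Apoe in the PCN array were read for comparison. Cyp3a11, the chief CYP3A enzyme of mouse liver and a known PCN-responsive gene, ranked directly below Apoe in that array at 15919, rank 19, but stood at 8519 with DMSO, rank 65, a 1.87-fold difference. Its signal thus matched that of Apoe in the PCN array only. It was the only 1 of the 50 brightest genes past 1.2-fold. Hpx, the hemopexin gene directly above Apoe, had 16044 with PCN and 17187 with DMSO, 1.07-fold lower. In the band of ranks 51 to 200, 6 of the 150 genes were lower by 1.2-fold or more and 1 was higher, and 5 genes had a lower difference than Apoa4. Among the 50 brightest genes 4 had a lower difference than Apoe and 40 a lower difference than Apoa2.

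**Figure D3:**
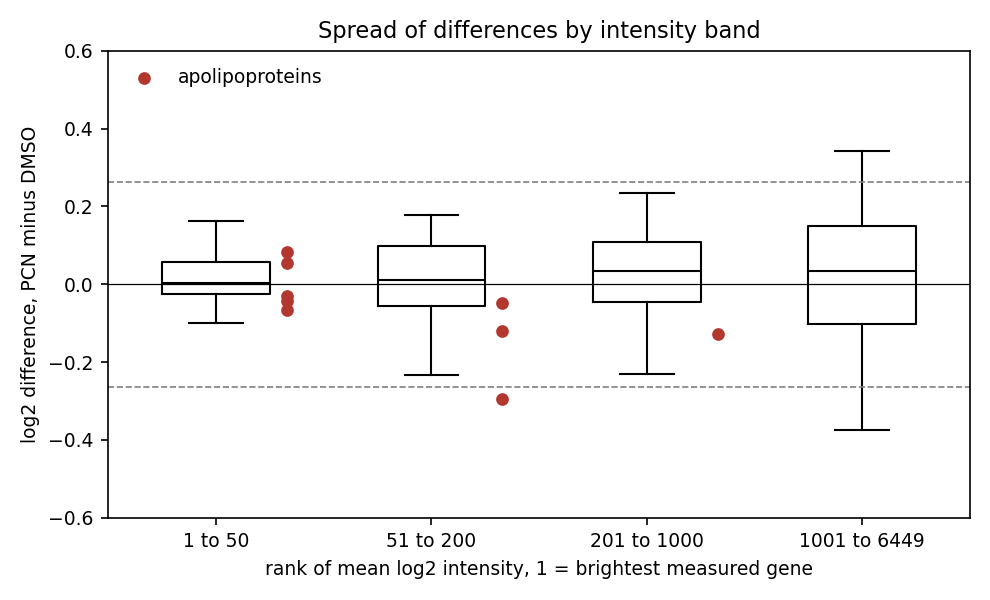
Log2 differences, PCN minus DMSO, of measured genes in 4 bands of mean intensity, with boxes from the 25th to the 75th percentile, whiskers from the 5th to the 95th, and apolipoproteins as red points beside them. The boxes widen toward dimmer genes, and Apoa4 is the only apolipoprotein below the 5th percentile of its band, which is -0.24.

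Bacterial and phage transcripts added during the assay gave a measure of how far the arrays themselves differ. Over the 40 such probe sets at or above the floor the log2 difference had an SD of 0.10 and ran from -0.33 to 0.16. That range holds all 9 apolipoproteins, but it includes controls far dimmer than they are, from a mean intensity of 32.2 upwards. The 6 brightest of them, which read only the cre and bioD transcripts, lay between intensities of 2228 and 10975, as means of the arrays. Their differences ran from 0.02 to 0.09. Of the apolipoproteins 2, Apoa2 and Apoc1, were inside that narrower range and the other 7 were below it. That is common, since all 6 of these controls were higher with PCN. The median difference was 0.004 in ranks 1 to 50 and 0.012 in ranks 51 to 200, both below the lowest of the 6 at 0.0185. Of all measured genes 46.4% had a lower difference than Apool, a gene at 0.0181. Apoa1, Apoe, Apoa2, Apoc1 and Apoc3 were brighter than every control, so no control covers their level. The controls also hold no variation between cultures.

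Apolipoprotein genes form a cluster on mouse chromosome 9 in the order Apoa1, Apoc3, Apoa4 and Apoa5 in the RefSeq gene table (assembly GRCm38.p6). Their values are set side by side here. All 9 measured apolipoproteins lie within the range of the 40 added control probe sets. Below the range of the 6 brightest controls lie 7 of them, as do most genes in ranks 1 to 50 and 51 to 200. Those 6 read only the cre and bioD transcripts, and none is as bright as Apoa1 or Apoc3. Apoa1 and Apoc3 were among the 50 brightest genes, with differences of -0.03 and -0.04, Apoa4 was 1.23-fold lower with PCN, and Apoa5 was not measured. Apoe and Apoc1 lie close together on chromosome 7 with Apoc4 and Apoc2. The differences there ran from -0.07 for Apoe to 0.05 for Apoc1, with 0.04 for Apoc4 and -0.03 for Apoc2.

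The 250 bases before the annotated start of Apoa1, Apoa4 and Apoa5 are shown because these neighbours on the plus strand of chromosome 9 hold the highest and the lowest intensity of the family. They are RefSeq sequences of build GRCm38.p6, at chr9:46228380-46228629 for Apoa1, chr9:46240594-46240843 for Apoa4 and chr9:46268358-46268607 for Apoa5, where the first of 2 annotated starts was taken. Capitals mark the motifs found, which were searched on both strands.
Apoa1: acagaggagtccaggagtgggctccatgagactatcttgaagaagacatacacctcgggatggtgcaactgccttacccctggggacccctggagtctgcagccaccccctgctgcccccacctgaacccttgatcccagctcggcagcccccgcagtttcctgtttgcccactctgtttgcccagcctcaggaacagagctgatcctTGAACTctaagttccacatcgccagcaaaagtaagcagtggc
Apoa4: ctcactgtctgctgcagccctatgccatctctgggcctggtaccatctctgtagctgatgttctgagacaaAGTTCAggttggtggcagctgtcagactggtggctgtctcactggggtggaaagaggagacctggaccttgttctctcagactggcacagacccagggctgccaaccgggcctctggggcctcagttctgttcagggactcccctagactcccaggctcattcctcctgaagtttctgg
Apoa5: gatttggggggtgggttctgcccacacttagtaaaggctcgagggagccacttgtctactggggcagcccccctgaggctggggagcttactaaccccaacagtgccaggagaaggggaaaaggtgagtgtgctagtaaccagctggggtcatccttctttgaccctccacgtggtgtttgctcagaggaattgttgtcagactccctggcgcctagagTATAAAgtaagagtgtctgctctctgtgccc

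The nuclear receptor hexamer AGTTCA, which pregnane X receptor elements are built from, was found on the minus strand of the Apoa1 window, 42 to 37 bases before the start, and on the plus strand of the Apoa4 window, 179 to 174 bases before it. RefSeq promoter entries were at hand for 8 of the 10 apolipoproteins, all but Apoc1 and Apoc3, and of the 8 only Apoa1 and Apoa4 held this hexamer. It is common, being in 11.8% of all 32851 windows of the same length. The other hexamer searched, AGGTCA, was in a window of Apoa2 and of Apoh and in 4607 of all windows. No apolipoprotein window held 2 of these hexamers as a direct repeat spaced by 1, 3 or 4 bases or as an everted repeat spaced by 6, and none held CAAAGTCCA, an HNF4-type sequence found in 0.384% of windows. The motif TATAAA stood 31 to 26 bases before the first annotated start of Apoa5 and 56 to 51 bases before the second. It was also found for Apob at 60 to 55 bases and for Apoa2 at 212 to 207 bases. For Apoe it lay at 100 to 95 and at 96 to 91 bases. TATAAA is in 12.4% of all windows. A match describes these letters and is not evidence of binding.

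Other genes of the apolipoprotein nomenclature were read from a list of 13, of which 9 had a probe set and 6 were measured. With PCN 2 were higher and 4 lower (66.7%), beside 42.4% lower over all measured genes. Lower by 1.2-fold or more was 1 gene (16.7%), beside 8.95% of all measured genes, and none was higher by that much. Apon, a mouse plasma apolipoprotein gene, had 798 with PCN and 1126 with DMSO, 1.41-fold lower, which exceeded every difference among the 10. Apof, which regulates lipid transfer between lipoproteins in humans, had 3665 with PCN and 4157 with DMSO, 1.13-fold lower. Apon and Apof are thus the members of this list that lay lowest.

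The remaining measured genes of that list were close to equal in both arrays. Apoc2, the cofactor of lipoprotein lipase, had 4236 with PCN and 4326 with DMSO, and Apoc4 had 2271 with PCN and 2213 with DMSO. Clu, the secreted chaperone also called apolipoprotein J, had 16545 with PCN and 16646 with DMSO. Apool, a mitochondrial inner membrane protein despite its name, had 808 with PCN and 798 with DMSO. Apod, Apol7a and Apol8 were under the floor in both arrays.

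The machinery that loads lipid onto Apob and exports the particle showed small differences in both directions. Of its 18 measured genes 7 were higher and 11 lower (61.1%) with PCN, with a median log2 difference of -0.04. Over all measured genes 42.4% were lower. Past 1.2-fold 1 was higher and 1 lower (5.56% each), beside 9.06% higher and 8.95% lower over all measured genes. Tm6sf2, needed for full lipidation of hepatic lipoproteins, was 1.22-fold lower, at 58.3 with PCN and 71.0 with DMSO. Ces1d, a lipase that mobilises stored triglyceride, had 41.2 with PCN and 31.7 with DMSO, the second of these under the floor, and was at least 1.29-fold higher. Ces1d has closely related neighbours, and how far its probe set reads them is unknown. Hspa5, the chaperone BiP, had 7281 with PCN and 6619 with DMSO, and Pla2g12b, a secreted phospholipase family member needed for lipoprotein export in mice, was 1.09-fold lower. Mttp, the transfer protein that lipidates Apob and was picked for its role with its value known, had 818 with PCN and 856 with DMSO, 1.05-fold lower.

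Receptors and uptake genes were 4 higher and 5 lower (55.6%) of 9 measured, beside 42.4% lower over all measured genes. Lower by 1.2-fold or more was 1 gene (11.1%), beside 8.95% of all measured genes. None was higher by that much, beside 9.06%. Cd36, a fatty acid and lipoprotein scavenger receptor, was 1.44-fold lower, at 45.1 with PCN and 64.9 with DMSO. Vldlr, the receptor for very low density lipoprotein, was 1.17-fold higher, at 150 with PCN and 128 with DMSO. Sdc1, the heparan sulfate proteoglycan that takes up remnants in liver, was 1.13-fold higher, and Lrpap1, a chaperone of lipoprotein receptors, was 1.08-fold lower near the floor.

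HDL genes were 1 higher and 6 lower (85.7%) of 7 measured, beside 42.4% lower over all measured genes. None passed 1.2-fold, beside 8.95% lower and 9.06% higher over all measured genes. Pon3, a lactonase carried on HDL, had 840 with PCN and 985 with DMSO, 1.17-fold lower. Lcat had 547 with PCN and 596 with DMSO, 1.09-fold lower, and Pcyox1, a lipoprotein-associated oxidase, was 1.07-fold lower. Pon1, the paraoxonase of HDL, was the member that was higher, at 1.03-fold. Of the lipoprotein lipase list 3 were higher and 4 lower (57.1%) of 7 measured, beside the same 42.4%. Past 1.2-fold 1 was higher and 1 lower (14.3% each), beside the same 9.06% and 8.95%. Lpl itself was under the floor, at 22.5 with PCN and 18.6 with DMSO. Angptl4, an inhibitor of that lipase, was 1.21-fold higher, at 1024 with PCN and 844 with DMSO. Lipa, the lysosomal acid lipase, was 1.23-fold lower, at 377 with PCN and 464 with DMSO, and Angptl8, a secreted regulator of the same lipase, was 1.14-fold lower.

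Apob mRNA is edited in mouse liver to encode a shorter protein, and the 3 measured genes of the editing list were higher with PCN by less than 1.2-fold, where 57.6% of all measured genes were higher. Apobec1, the cytidine deaminase, had 80.4 with PCN and 72.1 with DMSO. Its cofactor Rbm47 had 86.4 with PCN and 74.2 with DMSO, and the RNA-binding protein Syncrip had 249 with PCN and 235 with DMSO. A1cf, the other cofactor, was under the floor in both arrays.

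Transcription factors known to act on apolipoprotein genes were lower in 14 of 17 measured members (82.4%) and higher in 3. Over all measured genes 42.4% were lower. The median log2 difference of the list was -0.14, and the list was chosen with earlier results of these data known. Of the 17, 4 genes (23.5%) were lower by at least the 1.2-fold threshold, beside the 8.95% of all measured genes, and none was higher by that much. Cebpa, a factor of differentiated hepatocytes, had 219 with PCN and 400 with DMSO, a difference of -0.87. Ppara, the fatty acid receptor, had 266 with PCN and 377 with DMSO, a difference of -0.50. Their differences exceed those of any apolipoprotein measured.

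The nuclear receptors Nr5a2 and Nr1h4 were lower by amounts close to each other, with differences of -0.35 and -0.34. Nr5a2 was at 132 with PCN and 169 with DMSO. Nr1h4, the bile acid receptor FXR, was at 133 with PCN and 169 with DMSO. Creb3l3, a membrane-bound factor that drives Apoa4 in mouse liver, had 466 with PCN and 545 with DMSO, 1.17-fold lower. Hnf4a, the receptor on which many apolipoprotein promoters depend and which was picked for its role with its value known, had 457 with PCN and 529 with DMSO, 1.16-fold lower. The 3 members that were higher were Nr1h3, Cebpb and Foxo1. Nr1h3 had 85.1 with PCN and 73.4 with DMSO, 1.16-fold higher, a difference as large as that of Hnf4a. Cebpb had 905 with PCN and 830 with DMSO, 1.09-fold higher. Foxo1 was close to equal, at 324 with PCN and 323 with DMSO. Whether the differences of these transcription factors bear on the apolipoprotein levels was not tested.

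Other secreted hepatocyte proteins gave a picture close to that of the apolipoproteins. Of 25 measured genes 4 were higher and 21 lower with PCN, 84.0% lower beside 77.8% of the apolipoproteins and 42.4% of all measured genes, and both lists had a median of -0.05. Passing 1.2-fold were 2 genes (8.0%), both lower, beside 8.95% lower over all measured genes. The bands of brighter genes had lower shares, as given above. Vtn, the adhesion protein vitronectin, had 2893 with PCN and 3705 with DMSO, 1.28-fold lower, and Azgp1, a zinc-binding glycoprotein, had 5056 with PCN and 6279 with DMSO, 1.24-fold lower. Itih3 and Itih4, heavy chains of the inter-alpha-trypsin inhibitor family, were 1.19-fold and 1.14-fold lower. The list was written with earlier results known, and no test separates it from the apolipoproteins.

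**Figure D4:**
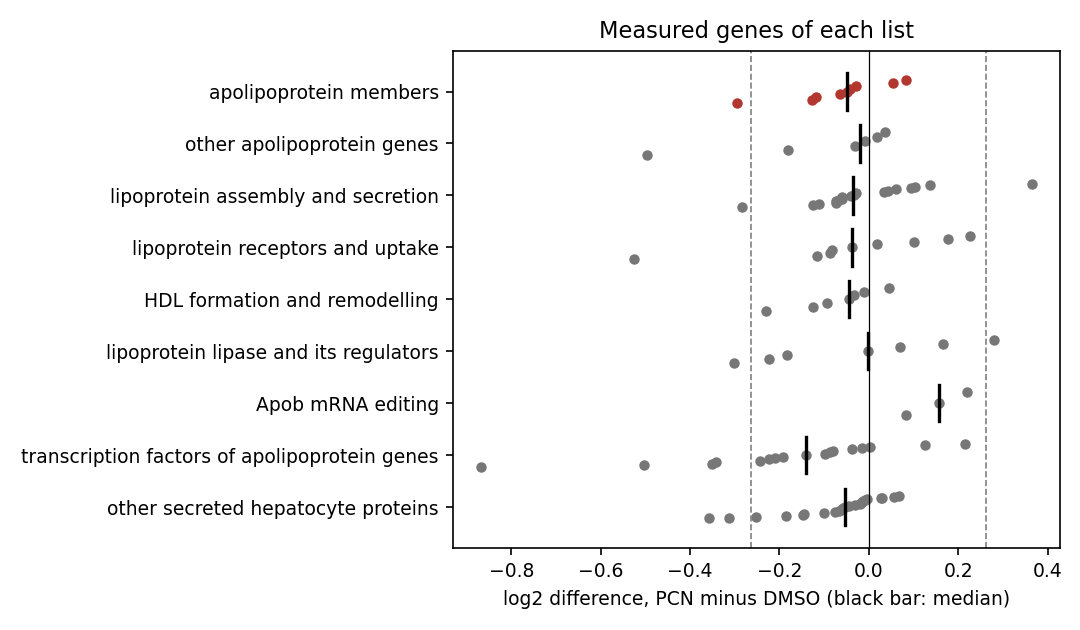
Log2 differences, PCN minus DMSO, of the measured genes of each list (points) with the median as a black bar and 1.2-fold dashed, apolipoproteins in red at the top. The apolipoproteins and the other secreted proteins both have a median of -0.05, and the transcription factors lie lowest with a median of -0.14.

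Markers of other liver cells were mostly dim. Of 11 endothelial markers 4 were measured, and the summed intensity of all 11 was 247 with PCN and 227 with DMSO. Stellate cell and fibroblast markers reached the floor in 2 of 11 cases, and all 11 had a sum of 412 with PCN and 459 with DMSO, most of it Dcn. Of 6 bile duct markers with a probe set 3 were measured, and all 6 had a sum of 748 with PCN and 843 with DMSO. Each of these 3 passed 1.2-fold, Krt19 being 1.32-fold higher and Sox9 and Cd24a 1.34-fold and 1.29-fold lower. In the band of dimmer genes where they lie, 20.1% of genes passed 1.2-fold in either direction. No marker was at 0 in these background-corrected values, and the part of other cells in the apolipoprotein differences was not tested.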

How the data were processed

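The 2 one-colour Affymetrix arrays analysed were 1 for PCN and 1 for DMSO. The deposited values are intensities on a linear scale made by the authors with GCRMA 2.2.0, per the submitters' processing notes. GCRMA corrects background, brings arrays to a common distribution and summarises each probe set, which hides any change in the amount of RNA a cell holds. Signals can be compressed at the highest intensities. For the probe set definition and its build: not given in the sources used here.

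Of 16395 probe sets, 64 were controls and 687 had no gene name here. The other 15644 had 1 symbol each and no gene had more than 1 probe set. Log2 values and differences, PCN minus DMSO, came from scripts in Python 3.11.15 using pandas 2.3.3 and numpy 2.4.6. Genes under a floor of 5 (log2) in both arrays counted as not measured, and a value under it in 1 array was raised to it, giving a bound written as "at least". With 1 array per group there was no test, SE or p-value. The number of arrays limits precision. Depth does not apply to array intensities. Array dates were not used here, and with a single array each, batch and treatment cannot be told apart.

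The members, lists, thresholds and alternatives were chosen with earlier results of these data known. Named genes are all 10 members, the measured genes of the second apolipoprotein list and up to 4 genes of each other list by size of difference. Added to these are the brightest genes, members' neighbours in rank, the transcription factors that were higher with PCN and genes marked as picked with values known. Alternatives were floors, scalings, a pseudocount of 32 and size thresholds. Loess used statsmodels 0.14.6 (fraction 0.3). The threshold procedure was run on simulated data with changes well past the threshold and less noise than the added controls show. It therefore checks the code only and gives no error rate for these arrays.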

Additional observations from a re-analysis of the deposited data

How the results depend on the processing

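All 8 alternatives of floor, scaling and pseudocount left the 72 recomputed log2 differences of the 9 measured apolipoproteins within the spike-in SD of 0.10 of the reported value. This is a weak check. The floors could not change these values, since all 9 genes lie far above them. The margin of 0.10 is also wider than the reported differences of Apoa1, Apoa2, Apob, Apoc1, Apoc3 and Apoe. Under the 8 alternatives Apoa4 ran from -0.33 (median centring) to -0.29 (32 added before log2), and it remained the only apolipoprotein past 1.2-fold. The family median ran from -0.08 to -0.05. With a floor of 4, with values as deposited or with 32 added, Apoa5 entered and 8 of 10 were lower. The median over all genes stayed between 0 and 0.04 under every alternative. The count of apolipoproteins lower by the size threshold was 1 at 1.1-fold, 0 at 1.5-fold and 0 at 2-fold, since a larger threshold passes fewer genes, and none was higher at any of these. Ranking unnamed probe sets too put Apoa2 at 29, Apoh at 72 and Apob at 162 in the PCN array, and Apoa5 at 7466. Taking the 100 brightest genes in place of 50 gave an interquartile width of 0.111 in place of 0.081. No replicate could be left out. No paired analysis was possible because there was a single array for PCN and a single array for DMSO. Signal near background limits Apoa5 and other dim genes.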

Other observations

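Few of the brightest genes differed. Among the 200 brightest measured genes 2 were higher with PCN by 1.2-fold or more and 6 were lower, and Apoa4 was 1 of the 6. The others are named after their values were seen. Adh1, an alcohol dehydrogenase, had 3150 with PCN and 6383 with DMSO. Sult1a1, a sulfotransferase, had 3842 with PCN and 4829 with DMSO. Both are enzymes, while the next genes encode secreted proteins. Lrg1, a leucine-rich acute phase glycoprotein, had 5248 with PCN and 6570 with DMSO, Wfdc21, a small secreted protein, had 6020 with PCN and 7477 with DMSO, and Azgp1 is given above. The differences of these secreted proteins and of Apoa4 lay between -0.32 and -0.30. On the other side were Cyp3a11 and Lgals3, the lectin galectin-3, the second with 7831 with PCN and 6307 with DMSO.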
